A study of Mus musculus with 6 samples.

Results

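The 10 genes described here are markers of the shift from early to late progenitors in the developing retina, chosen by name. They are Lin28a, Lin28b, Hmga1, Hmga2, Igf2bp1, Igf2bp2 and Igf2bp3, which are high in early progenitors, and the NFI genes Nfia, Nfib and Nfix, which are high in late ones. All 10 are among the 26147 genes of the deposited table and all passed the filter on low values, so they are 10 of the 18914 genes tested. RNA was taken from C57BL/6J mouse retinas at embryonic day 13.5 and sequenced as 3 libraries of wild types and 3 of conditional knockouts of Tbx3 (Tbx3 cKO). The wild types were siblings without Cre that carried 1 floxed and 1 normal Tbx3 allele. The Tbx3 cKO embryos carried the Dkk3-Cre transgene, which is active in retinal progenitors, and were homozygous for the deleted floxed allele. Because the wild types had no Cre, an effect of Cre and an effect of Tbx3 loss cannot be told apart. The comparison asks whether the retina without Tbx3 differs from its siblings in the genes that mark developmental timing.

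A retinal progenitor changes what it can make as development goes on: it yields ganglion cells, horizontal cells and cones first, and rods, bipolar cells and Müller glia later. LIN28 proteins bind precursors of the microRNA let-7 and block their maturation, and mature let-7 in turn represses the mRNAs of Lin28a, Lin28b, Hmga2 and Igf2bp1, so that the early genes hold each other on. As let-7 builds up they fall together. NFI transcription factors rise in late progenitors, where they promote exit from the cell cycle and the making of late cell types.

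The let-7 seed and its matches are shown because let-7 is known to repress several of the early genes. Of 10 mouse let-7 forms in RefSeq (GRCm38.p6), 9 share the seed GAGGUAG at bases 2 to 8. It is given in capitals for the 3 forms with a hairpin inside Mir99ahg, Mir100hg or Huwe1, the measured host genes that were checked. Other genes were not searched as hosts.
let-7a: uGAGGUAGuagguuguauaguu
let-7c: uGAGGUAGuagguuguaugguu
let-7f: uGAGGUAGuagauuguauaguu
The hairpin of let-7c-1 lies on the same strand inside the non-coding host gene Mir99ahg, and the 4 bases GGAG, a motif that LIN28 binds, are in capitals.
let-7c-1 hairpin: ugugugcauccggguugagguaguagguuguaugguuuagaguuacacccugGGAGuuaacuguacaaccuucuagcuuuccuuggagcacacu
GGAG, searched on the hairpin's own strand, was found after the mature 5′ arm in 9 of 11 let-7 hairpins. Anywhere in the hairpin it was found in 42.3% of 241 other mouse hairpins of 83 to 103 bases. Mature let-7 was not measured, since the libraries were made from polyadenylated RNA.

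The DNA match of the seed, CTACCTC, was searched on the transcript strand in the 3′ UTR of the longest coding transcript of each gene (GENCODE M21, GRCm38). Lin28b, Hmga2 and Igf2bp1 held 4 matches each, Lin28a held 2, and Hmga1, Igf2bp2, Igf2bp3 and Nfia held 1 each. Nfib and Nfix held none. One match of each of the 4 genes with more than a single match is printed, with the seed match in capitals. Each printed match is of the kind followed by A. That kind made up 2 of 2 matches in Lin28a, 1 of 4 in Lin28b, 1 of 4 in Hmga2 and 3 of 4 in Igf2bp1.
Lin28a: tgagatcgccacaaacCTACCTCact
Lin28b: cacccgggcgggaagtCTACCTCatg
Hmga2: cgccgacattcaatttCTACCTCagc
Igf2bp1: ccagcagtgctattaaCTACCTCagc
Those of Lin28b and Hmga2 start at base 36 and base 58 after the stop codon. Among 3′ UTRs within 20% of the same length, 4 or more matches were found in 0.24% for Lin28b, 0.14% for Hmga2 and 0.36% for Igf2bp1. For Lin28a, 2 or more matches were found in 2.16%. At least 1 match was found in 8.1% of 3′ UTRs as long as that of Hmga1, 11.8% for Igf2bp2 and 13.1% for Igf2bp3. For the late gene Nfia that share was 41.2%. At least 1 match was found in 34.1% of 3′ UTRs as long as that of Nfib and in 21.3% of those as long as that of Nfix. Several of the early genes are known as let-7 targets, so their matches are a description and not a result of these libraries.

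**Figure D1:**
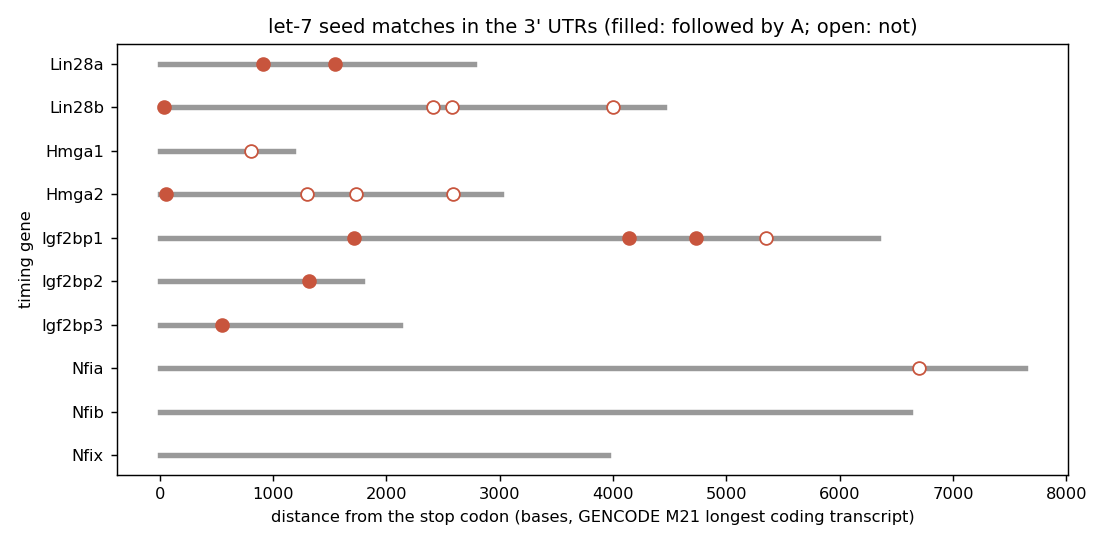
Position of each let-7 seed match (circles) along the 3′ UTR (grey lines) of the 10 timing genes, in bases from the stop codon. Filled circles are matches followed by A, and Lin28b, Hmga2 and Igf2bp1 carry 4 matches each while Nfib and Nfix carry none.

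Estimated depth ran from 21482340 to 27173677 reads per library, and the deposited values are read counts scaled by the authors. The normalized value of Tbx3 was 1998 to 2577 across the wild types and 40.3 to 58.9 across the Tbx3 cKO libraries, so the libraries matched their labels. Wild type 1 and Tbx3 cKO 1 stood apart in the ratio of embryonic Hbb-y to the adult beta-globins Hbb-bs plus Hbb-bt, which falls as red cells from the fetal liver replace those from the yolk sac. This ratio stood at 0.331 for wild type 1, at 0.749 for Tbx3 cKO 1, and at 4.78 to 5.81 for the other 4 libraries. Tbx3 cKO 3 stood apart in neuron markers: the summed value of 14 markers was 1808 there, against 10607 and 20308 in the other Tbx3 cKO libraries and 26733 to 137168 in the wild types. Wild type 1 stood apart too, with the highest neuron sum (137168, against 26733 and 44059 in the other wild types) and the lowest sum of mesenchyme and mural markers (1276). All 14 neuron markers had a negative fold change (median log2 -3.49). Of these, 12 had an unadjusted p under 0.05 by limma, against 7.16% of all genes tested in that direction, and 0 passed after adjustment. Pou4f2, a ganglion cell factor, was listed at 0 in Tbx3 cKO 3. The retinal progenitor list was detected in every library, with a summed value of 85543 in Tbx3 cKO 3 and 141512 to 212134 in the others. The labels give neither litters nor the number of embryos per library, so each p-value rests on the spread among 6 samples that may be partly technical. In such bulk samples, fewer cells of a type and less RNA per cell cannot be told apart.

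None of the 10 timing genes passed the test over all genes (limma-trend, Benjamini-Hochberg adjusted p under 0.05), where 12 genes or 0.0634% did. That count of 12 fell to 1 without any single library other than Tbx3 cKO 3, and was 10 without Tbx3 cKO 3. At an unadjusted p under 0.05 by limma, 1 of the 10 was counted, Nfib, against 13.5% of all genes tested. The values of the groups overlapped for all 10, against 22.4% of tested genes without overlap. With 3 against 3 libraries the exact permutation test cannot give a p under 0.1, and it gave 0.2 to 0.6 for the 10 genes. The fold change was positive for 5 of 7 early genes and for 3 of 3 NFI genes, against 48% of all genes tested. Their medians were 0.12 and 0.62 on the log2(value + 1) scale, beside -0.02 over all genes tested.

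**Figure D2:**
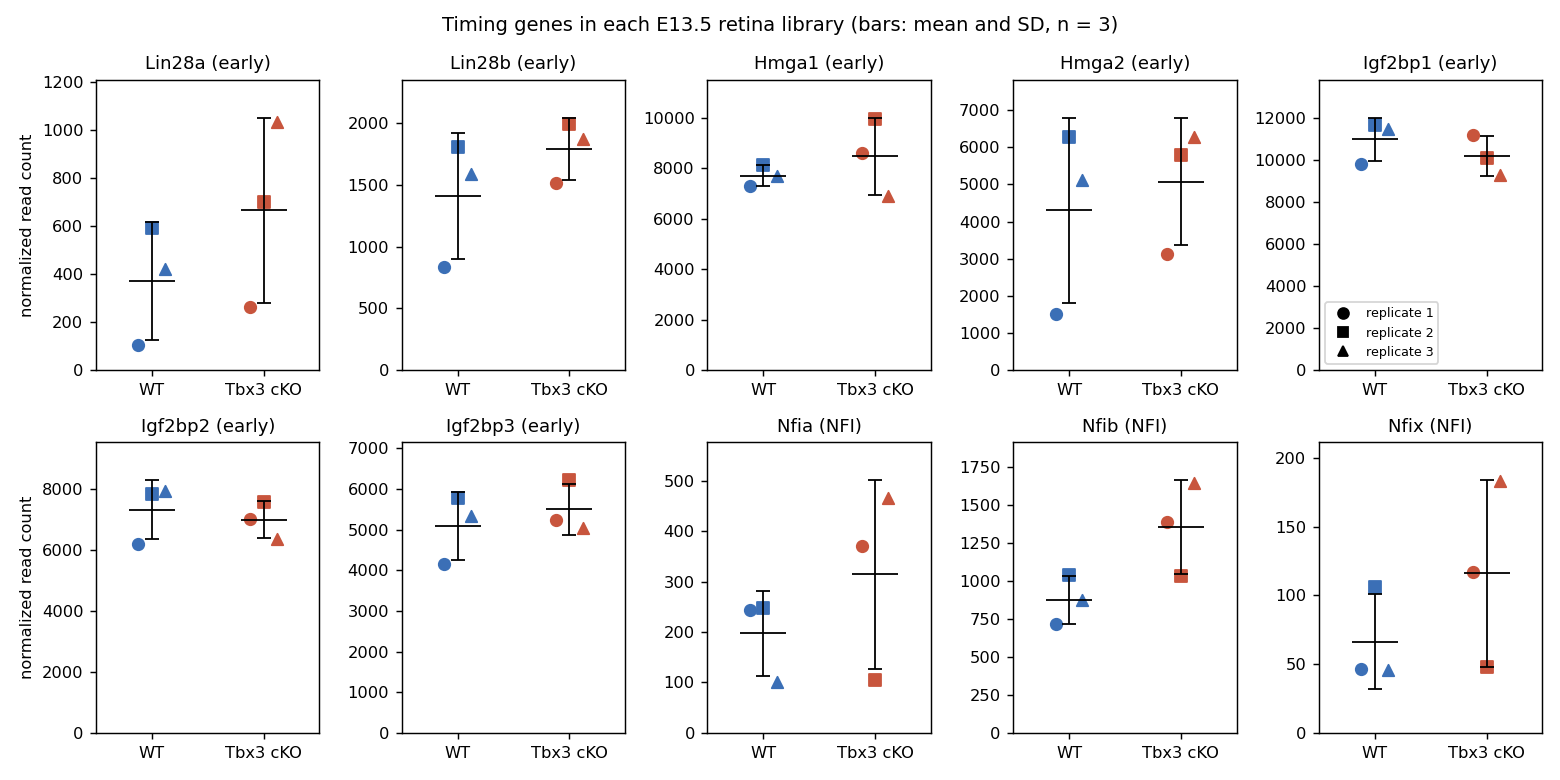
Normalized read counts of the 10 timing genes in each library (points; the symbol gives the replicate number), with the mean and SD of 3 libraries per genotype. The groups overlap in every panel, and the replicate 1 libraries are the lowest of their group for Lin28a, Lin28b and Hmga2.

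Lin28a (ENSMUSG00000050966), the LIN28 protein known from stem cells, measured 104, 590 and 420 normalized counts in wild type 1, 2 and 3, against 262, 700 and 1033 in Tbx3 cKO 1, 2 and 3. The lowest library was wild type 1 and the next Tbx3 cKO 1, the same pair that had the low globin ratio. Across the 6 libraries the highest value was 9.96 times the lowest, and 9.64% of tested genes had a larger range. The mean was 371 ± 247 in the wild types, against 665 ± 386 in Tbx3 cKO (SD, n = 3 each), a log2 fold change of 0.96 with a 95% interval of -0.78 to 2.7 (limma adjusted p = 0.553). The interval is wide and spans 0, so these libraries show neither a change of Lin28a nor that its level was alike in both genotypes.

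Lin28b (ENSMUSG00000063804), its paralog, measured 838, 1809 and 1589 in the 3 wild types, against 1512, 1995 and 1869 in the 3 Tbx3 cKO libraries. Wild type 1 was again the lowest and Tbx3 cKO 1 the next, while the 2 highest were both Tbx3 cKO. The log2 fold change was 0.41 (SE 0.29, limma adjusted p = 0.518). Between libraries of the same number, Tbx3 cKO was above wild type in 3 of 3 for both LIN28 genes, with ratios of 2.53, 1.19 and 2.46 for Lin28a and 1.81, 1.10 and 1.18 for Lin28b. The labels do not say that these numbers pair the samples. Without wild type 1, the log2 fold change was 0.21 for Lin28a and 0.07 for Lin28b, and in a fit with a term for the mean level of neuron markers it was -0.82 and -0.07. The mean log2 level of neuron markers was 10.4 to 12.9 in the wild types and 5.39 to 9.79 in Tbx3 cKO. Because it did not overlap between the genotypes, the fit with this term cannot tell genotype from neuron level. With a term for the log2 globin ratio the log2 fold change was 0.69 for Lin28a (unadjusted p = 0.00903, adjusted p = 0.179 by limma) and 0.31 for Lin28b (unadjusted p = 0.0482, adjusted p = 0.307 by limma).

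Hmga2 (ENSMUSG00000056758), a chromatin protein that binds AT-rich DNA and keeps stem cells dividing in the fetus, followed the same order at the low end. It measured 1511, 6283 and 5127 in the 3 wild types, against 3117, 5802 and 6284 in the 3 Tbx3 cKO libraries. The lowest library was wild type 1 and the next Tbx3 cKO 1, and the other 4 lay between 5127 and 6284 whatever their genotype. The log2 fold change was 0.41 (SE 0.55, limma adjusted p = 0.739), without wild type 1 it was -0.23, and with the neuron term, which did not overlap between the genotypes, -0.73. With a term for the mesenchyme and mural markers it was -0.21. The processed copy Hmga2-ps1 had 146 in wild type 1, 376 in Tbx3 cKO 1 and 468 to 658 in the other libraries, and reads of the 2 genes may have been shared, so the split between them is uncertain.

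Hmga1 (ENSMUSG00000046711), the other gene of the family, did not follow that order. It measured 7306, 8144 and 7672 in the 3 wild types, against 8596, 9934 and 6885 in the 3 Tbx3 cKO libraries, with Tbx3 cKO 3 the lowest and Tbx3 cKO 2 the highest. Its log2 fold change was 0.12 (SE 0.14, limma adjusted p = 0.706). Hmga1b, a near-identical copy, had 5613 ± 559 in the wild types, against 7108 ± 556 in Tbx3 cKO, higher without overlap as were 10.6% of all genes tested (SD, n = 3 each; limma adjusted p = 0.331). The summed value of both was 13320 ± 909 against 15580 ± 2059, a ratio of 1.17 (exact permutation p = 0.3), and the split between the copies is uncertain.

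The 3 Igf2bp genes encode proteins that bind and stabilise mRNAs, and they were the steadiest early genes beside Hmga1. Igf2bp1 (ENSMUSG00000013415) measured 9799, 11653 and 11477 in the 3 wild types, against 11156, 10058 and 9255 in the 3 Tbx3 cKO libraries. Its log2 fold change was -0.11 with a 95% interval of -0.39 to 0.16 (limma adjusted p = 0.666). Igf2bp2 (ENSMUSG00000033581) measured 6211, 7843 and 7934 in the 3 wild types, against 7042, 7588 and 6369 in the 3 Tbx3 cKO libraries, with a log2 fold change of -0.06 (95% interval -0.37 to 0.25). Igf2bp3 (ENSMUSG00000029814) measured 4152, 5784 and 5349 in the 3 wild types, against 5231, 6216 and 5048 in the 3 Tbx3 cKO libraries, with a log2 fold change of 0.12 (95% interval -0.24 to 0.47). The highest library was 1.26 times the lowest for Igf2bp1, 1.28 times for Igf2bp2 and 1.5 times for Igf2bp3, and 66.6 to 89.0% of tested genes had a larger range. Wild type 1 was the lowest or the next to lowest library for all 3, and Tbx3 cKO 3 was the other of the lowest pair.

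Among the 3 NFI timing genes, Nfib (ENSMUSG00000008575) was the most abundant per length. It measured 720, 1036 and 874 in the 3 wild types, against 1387, 1030 and 1644 in the 3 Tbx3 cKO libraries. The 2 highest libraries were Tbx3 cKO 1 and 3, and Tbx3 cKO 2 lay just under wild type 2. The mean was 877 ± 158 in the wild types, against 1354 ± 309 in Tbx3 cKO (SD, n = 3 each), 1.54 times as high. The log2 fold change of 0.62 (SE 0.21, 95% interval 0.12 to 1.11) had an unadjusted p of 0.0214 and an adjusted p of 0.335 by limma.

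Nfia (ENSMUSG00000028565) measured 244, 248 and 100 in the 3 wild types, against 370, 106 and 466 in the 3 Tbx3 cKO libraries. Its log2 fold change was 0.53 with a 95% interval of -0.92 to 1.98 (limma adjusted p = 0.699). Nfix (ENSMUSG00000001911) was low throughout, with 46.7, 106 and 45.7 in the wild types, against 117, 47.8 and 183 in Tbx3 cKO, all above the 2.69 to 3.41 that a count of 3 reads is worth. Its log2 fold change was 0.72 with a 95% interval of -0.64 to 2.07 (limma adjusted p = 0.566). Nfic, an NFI gene that is not a member and is counted below among the other late genes, had 914 ± 108 in the wild types, against 1026 ± 250 in Tbx3 cKO (SD, n = 3 each).

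For each of the 3 NFI genes, the 3 highest libraries were Tbx3 cKO 3, Tbx3 cKO 1 and wild type 2, and these were also the 3 highest libraries in the mean log2 level of mesenchyme and mural, pigment epithelium and endothelial markers. The summed value of the 15 mesenchyme and mural markers measured 1276, 9971 and 3912 in the 3 wild types, against 9079, 4213 and 20273 in the 3 Tbx3 cKO libraries, and no marker of the list was at 0 in any library. Wild type 1 broke the match: it had the lowest sum, yet its Nfia value (244) was close to that of wild type 2 (248). Its mean NFI level relative to the wild-type mean (log2 -0.08) was above those of wild type 3 (-0.42) and Tbx3 cKO 2 (-0.29). The fold change was positive for 14 of the 15 mesenchyme and mural markers (median log2 1.31). At an unadjusted p under 0.05 by limma, 1 was higher, against 6.39% of all genes tested. In a fit with a term for the mean log2 level of this list, the log2 fold change was 0.19 for Nfia, 0.35 for Nfib and 0.07 for Nfix, against 0.53, 0.62 and 0.72 without the term. The unadjusted p of Nfib with that term was 0.0487 (limma adjusted p = 0.835). With the neuron term instead, the log2 fold change was 0.20 for Nfib and -0.28 for Nfix. The mean level of neuron markers did not overlap between the genotypes, so that fit cannot tell genotype from neuron level. Pigment epithelium markers (9 of 9 tested with a positive fold change) summed to 853 to 5666 in the wild types, against 5633 to 27160 in Tbx3 cKO. Macrophage markers (10 of 10 positive) summed to 785 to 1476 and 2930 to 6055. Endothelial markers (11 of 12 positive) had a mean log2 level of 8.14 in Tbx3 cKO 1, 8.18 in Tbx3 cKO 3 and 7.43 in wild type 2, and of 5.57 to 7.17 in the other 3 libraries. Optic stalk and astrocyte markers (5 of 5 tested positive) summed to 531 to 1411 in the wild types, against 1744 to 4063 in Tbx3 cKO, and the astrocyte marker S100b, at 0 in wild type 2 and Tbx3 cKO 3, was not tested. Pdgfra is on both this list and the mesenchyme and mural list, and gave 886 of the 1411 in wild type 2. Of the optic stalk and astrocyte list, Vax1, an optic stalk factor named after its values were seen, rose with a log2 fold change of 3.19 (limma adjusted p = 0.0378). That call was lost without any single library (limma adjusted p of 0.0898 to 0.205), while its log2 fold change stayed between 2.91 and 3.44. Red blood cell markers (10 of 10 positive, median log2 2.10) summed to 64177 to 97367 in the wild types, against 195120 to 634439 in Tbx3 cKO. The part of pigment, endothelial, optic stalk, astrocyte, macrophage and red blood cells in the NFI values was not tested. Nor was the part of red blood cells in the values of the early genes. Lens markers split the libraries another way, with sums of 64267 to 174162 in wild type 2, wild type 3 and Tbx3 cKO 2 and of 1248 to 2130 in wild type 1, Tbx3 cKO 1 and Tbx3 cKO 3, so the lens markers ordered the libraries differently from the NFI genes.

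**Figure D3:**
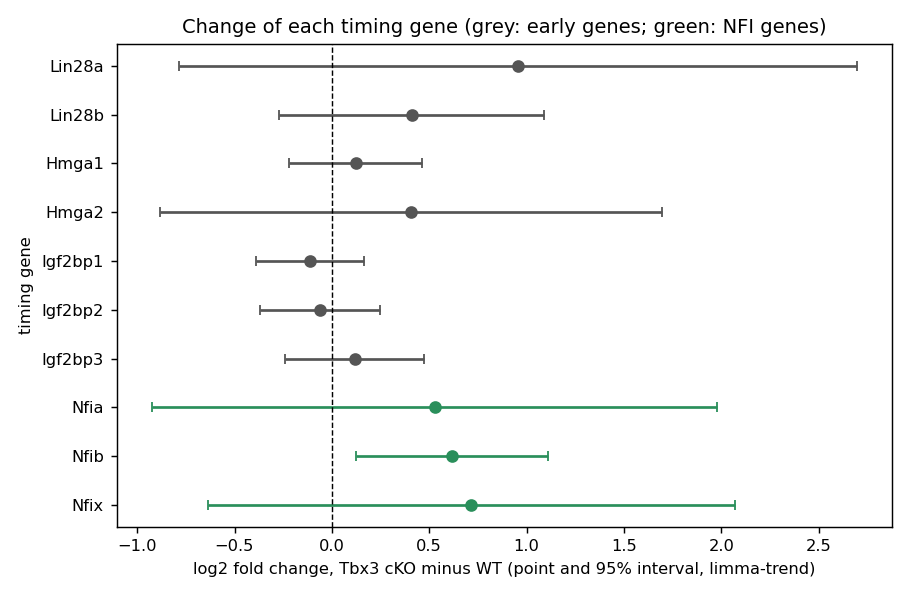
Log2 fold change of each timing gene, Tbx3 cKO minus wild type, with its 95% interval from limma-trend. The interval of Nfib (0.12 to 1.11) lies above 0, those of the other 9 genes span 0, and the Igf2bp genes and Hmga1 have the narrowest intervals.

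Set per kilobase of exon in GENCODE M21, which the authors may not have used, the mean level in wild type ran from Hmga1 (3627 ± 198) through Igf2bp2 (1813 ± 240), Igf2bp1 (1310 ± 122), Igf2bp3 (1173 ± 195) and Hmga2 (1131 ± 654) to Lin28b (261 ± 94.3) and Lin28a (106 ± 70.4), and then to Nfib (95 ± 17.1), Nfia (20.7 ± 8.8) and Nfix (9.7 ± 5.1; SD, n = 3 each). Igf2bp1, Igf2bp3 and Hmga2 lay within their spread of each other, as did Lin28a and Nfib. In Tbx3 cKO the order began with Hmga1 (3987 ± 719) and Igf2bp2 (1731 ± 151) and ended with Nfia (33.0 ± 19.6) and Nfix (17.1 ± 10). In both genotypes all of Hmga1 and the 3 Igf2bp genes were above Lin28b, and Nfia and Nfix were the lowest.

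As a description of timing, the mean log2 level of the 7 early genes was set against that of the 3 NFI genes in each library, both relative to the wild-type mean. The early genes stood at -0.60, 0.38 and 0.22 in the 3 wild types, against -0.01, 0.44 and 0.35 in the 3 Tbx3 cKO libraries. The 2 lowest libraries were again wild type 1 and Tbx3 cKO 1, those of low globin ratio, and the groups overlapped. The NFI genes stood at -0.08, 0.50 and -0.42 in the 3 wild types, against 0.87, -0.29 and 1.28 in the 3 Tbx3 cKO libraries. Early minus NFI gave -0.52, -0.11 and 0.63 in the wild types, against -0.88, 0.74 and -0.93 in Tbx3 cKO, a lower value standing for a later profile. The groups overlapped, with the highest and the 2 lowest values all in Tbx3 cKO, and the difference of the means was -0.36, beside SDs of 0.59 and 0.95 (n = 3 each). It ran from -0.90 without Tbx3 cKO 2 to -0.04 without wild type 3. Without the replicate 1 library of either genotype, so that the 4 libraries of high globin ratio were compared, the difference was -0.36 and the log2 fold changes were 0.77 for Lin28a, 0.19 for Lin28b and 0.09 for Hmga2.

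**Figure D4:**
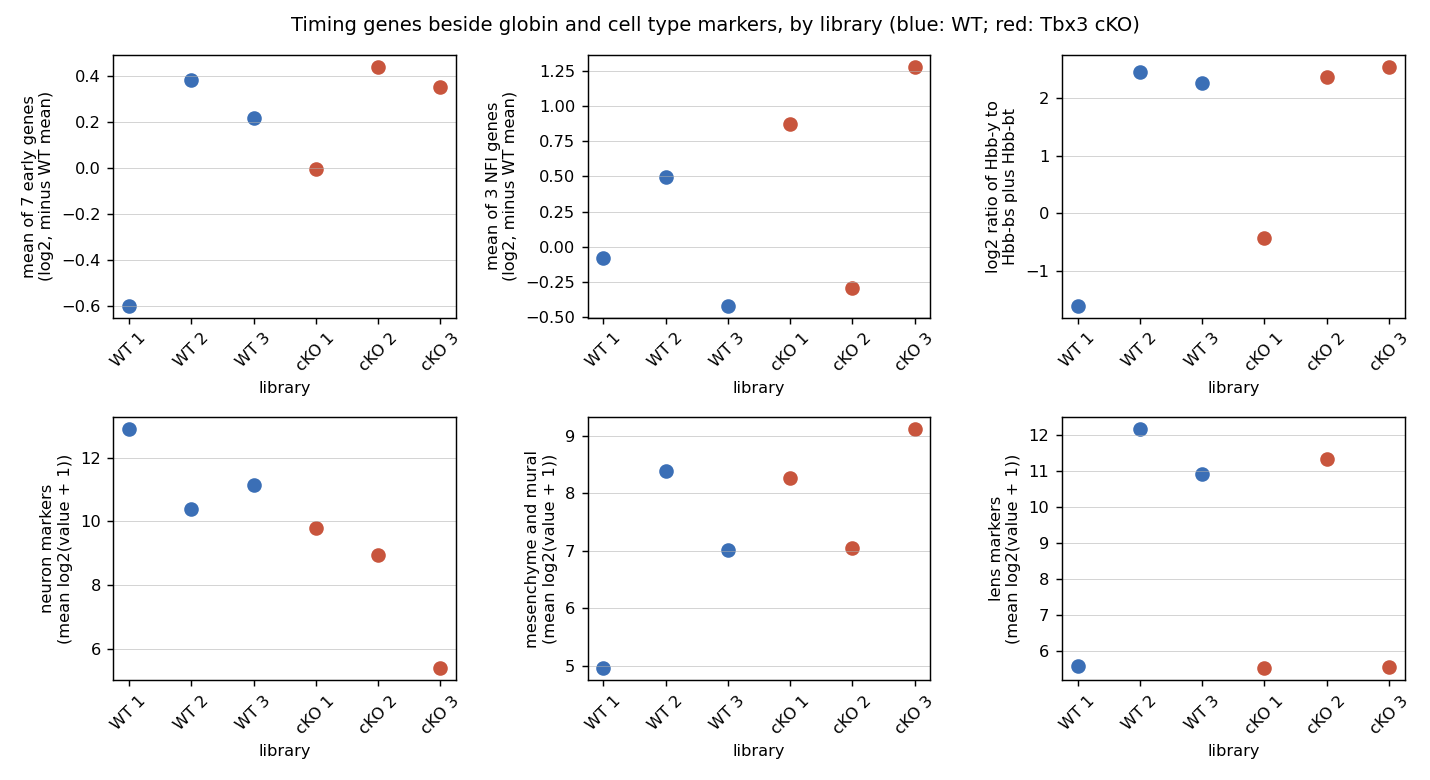
Mean log2 level of the early and of the NFI timing genes relative to the wild-type mean, the log2 globin ratio, and the mean log2(value + 1) of neuron, mesenchyme and lens markers in each of the 6 libraries. Wild type 1 and Tbx3 cKO 1 are lowest for the early genes and for the globin ratio. The libraries highest for the NFI genes are also those highest for mesenchyme markers. Wild type 1, lowest for mesenchyme markers, is not the lowest for the NFI genes.

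The machinery that LIN28 and let-7 act through had small differences, with 3 genes positive and 15 negative. Of these 18 tested, 0 passed limma after adjustment over all genes, and at an unadjusted p under 0.05 there were 1 higher and 3 lower (backgrounds of 6.39% and 7.16%). The median log2 fold change was -0.08. Ago1, an Argonaute protein that carries microRNAs, was 8351 ± 558 in the wild types, against 5988 ± 1136 in Tbx3 cKO (SD, n = 3 each; limma adjusted p = 0.324). Syncrip, an RNA-binding protein, was 9769 ± 259 and 7519 ± 998 (limma adjusted p = 0.324). Named after its values were seen, Dis3l2, the nuclease that degrades let-7 precursors tagged by LIN28, was 1023 ± 14.5 and 819 ± 64.4 (limma adjusted p = 0.332). Dicer1, which cuts the precursors and was also named after its values were seen, was 6976 ± 369 and 6163 ± 570. Its groups overlapped (limma adjusted p = 0.443).

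Of 19 other let-7 targets, 7 were positive and 12 negative, with a median of -0.19. None passed limma after adjustment, with 0 higher and 3 lower at an unadjusted p under 0.05 (6.39% and 7.16% of all genes tested). Without overlap between the groups, 1 was higher and 6 lower (10.6% and 11.7% of all genes tested). The 1 higher was Myc, which is also on the list of IGF2BP bound transcripts below. Ccnd1, 1 of the 6 lower, is also on the lists of other early progenitor genes and of retinal progenitor markers. Such shared genes are not separate observations. Insr, the insulin receptor, was 3849 ± 456 in the wild types, against 2977 ± 229 in Tbx3 cKO (SD, n = 3 each; limma adjusted p = 0.329). Ccnd2, a D-type cyclin named after its values were seen, was 3276 in wild type 1 and 7510 to 10905 in the other 5 libraries, so it shared the low wild type 1 value of Lin28a and Hmga2 but not that of Tbx3 cKO 1.

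Transcripts known to be bound by IGF2BP proteins had a median of 0.79, with 5 of 6 tested positive and 0 passing limma after adjustment. At an unadjusted p under 0.05 by limma, 1 was higher and 0 lower (6.39% and 7.16% of all genes tested). H19, the imprinted non-coding RNA, measured 6770, 39265 and 25490 in the 3 wild types, against 39026, 59388 and 57962 in the 3 Tbx3 cKO libraries (limma adjusted p = 0.366). Myc measured 286, 947 and 829 in the 3 wild types, against 1091, 1239 and 1063 in the 3 Tbx3 cKO libraries (limma adjusted p = 0.392). It was higher without overlap, as were 10.6% of all genes tested. Wild type 1 was the lowest library for H19 and for Myc. Of the 3 let-7 host genes tested, none passed limma after adjustment. At an unadjusted p under 0.05, 1 was higher and 0 lower (6.39% and 7.16% of all genes tested). Mir99ahg, the host of the let-7c-1 hairpin printed above, measured 116, 294 and 237 in the 3 wild types, against 321, 381 and 639 in the 3 Tbx3 cKO libraries. It was higher without overlap, as were 10.6% of all genes tested, with a log2 fold change of 1.09 (SE 0.40, limma adjusted p = 0.345). Mir100hg, which spans let-7a-2, measured 881, 2405 and 1512 in the 3 wild types, against 2450, 1953 and 4928 in the 3 Tbx3 cKO libraries (limma adjusted p = 0.385). Host transcripts do not give the level of the mature microRNA.

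Genes that mark early and late progenitors by other criteria had fold changes in both directions. Of 11 other early progenitor genes, 2 were positive and 9 negative, with a median of -0.72 and 0 passing limma after adjustment. At an unadjusted p under 0.05, 1 was higher and 0 lower (6.39% and 7.16% of all genes tested). Ccnd1, the main D-type cyclin of retinal progenitors, measured 80640, 28965 and 35783 in the 3 wild types, against 28530, 23905 and 5224 in the 3 Tbx3 cKO libraries (limma adjusted p = 0.378). Ikzf1, a temporal factor of early progenitors that white blood cells also express, was 79.7 ± 19.5 in the wild types, against 264 ± 178 in Tbx3 cKO (SD, n = 3 each; limma adjusted p = 0.322). Fgf15, named after its values were seen, was 631 in Tbx3 cKO 3, 7250 and 13883 in the other Tbx3 cKO libraries, and 13792 to 36323 in wild type.

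Of 17 other late progenitor and Müller glia genes tested, 6 were positive and 11 negative, with a median of -0.23. Id1, an inhibitor of bHLH factors induced by BMP signalling, fell from 1636 ± 106 in the wild types to 422 ± 78.3 in the Tbx3 cKO libraries (SD, n = 3 each; limma adjusted p = 0.0180), and it was the only one of the 17 to pass. Its call was lost without any single library except Tbx3 cKO 3 (limma adjusted p of 0.0205 to 0.161 over the 6 left-out libraries), while its log2 fold change stayed between -2.08 and -1.81. At an unadjusted p under 0.05 by limma, 4 were higher and 2 lower (6.39% and 7.16% of all genes tested). Apoe, which macrophages also express, was 2434 ± 1160 in the wild types, against 10198 ± 5692 in Tbx3 cKO (limma adjusted p = 0.285). Sox8, named after its values were seen, was highest in wild type 1, with 564, and lowest in Tbx3 cKO 3, with 65.3. Apoe and Rlbp1, the latter also named after its values were seen, were lowest in wild type 1, with 1094 and 110, and highest in Tbx3 cKO 3, with 16771 and 559, so genes of this list ordered the libraries in different ways.

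**Figure D5:**
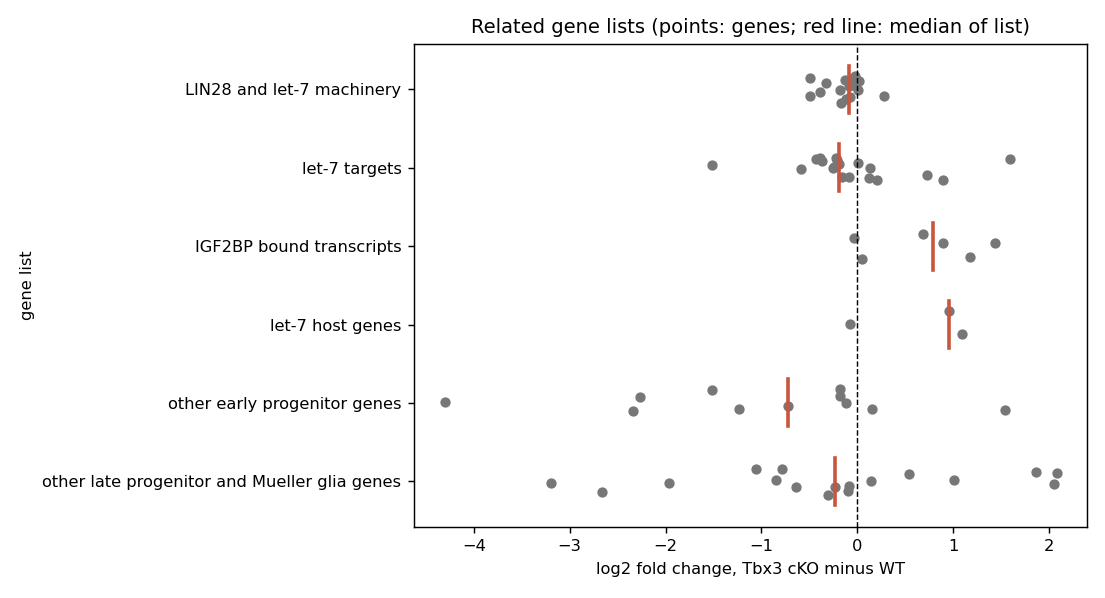
Log2 fold change, Tbx3 cKO minus wild type, of each tested gene (points) in 6 related gene lists, with the median of each list (red line). The LIN28 and let-7 machinery lies close to 0 (median -0.08), while the lists of early and late progenitor genes spread to both sides.

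The genes whose pattern over the 6 libraries was most like that of 2 members were found by the root mean square difference between centred log2 values, over 11618 genes with a mean of at least 100. For Lin28b these were Ext1, an enzyme that builds heparan sulfate (difference 0.107), Pcbd2 (0.108) and Gcdh, a mitochondrial dehydrogenase (0.122). For Nfib they were Nim1k, a protein kinase (0.0772), Orai3, a calcium channel subunit (0.0802), and Arap1 (0.0913). Ext1 measured 1142 for wild type 1 and 1808 for Tbx3 cKO 1, its 2 lowest libraries, as for Lin28b. With so many genes and 6 libraries, close matches are a description only.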

How the data were processed

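Polyadenylated RNA was made into strand-specific libraries, per the labels' protocols, from 3 wild-type and 3 Tbx3 cKO samples. The build GRCm39 (mm39) and the tools STAR 2.7.8a, cutadapt 4.2 and Partek are named in the submitters' processing notes. How reads were assigned to genes and strands, with which annotation, and how values were scaled is not given in the sources used here. Each deposited value is a signal, read counts per gene scaled by the authors. Median-of-ratios factors computed from them were 1.00861 or 1.00862 in every library. Low values mostly fell on multiples of a library's own step, 0.897 to 1.14 (76.0 to 77.4% of values up to 20 steps lay within 0.02 steps), which gave the estimated reads; whole reads were not recovered. The 108 genes with no symbol held 0.041% of the total.

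Genes reaching 10 in 3 or more libraries were tested (7233 were not) on log2(value + 1), which understates changes of low genes, with limma-trend (limma 3.58.1, R 4.3.3), two-sided, threshold 0.05, and no covariate or block. The fit was tested on simulated data. The members and lists were chosen with earlier results of these data known. Named were the members, 2 genes of smallest p per related list, and 3 genes most like Lin28b and Nfib; others are said to be named after their values were seen. One gene that this rule names is not reported here. Gene coordinates are left out, since GENCODE M21 and the RefSeq tables used here are on GRCm38. Alternatives covered the pseudocount, filter, normalization, model, covariates and left-out libraries.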

Additional observations from a re-analysis of the deposited data

How the results depend on the processing

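None of the 10 timing genes passed the adjusted threshold of limma under any of the 22 alternatives, of which 1, leaving out wild type 1 and Tbx3 cKO 1 together, was chosen after seeing the data. Another, median-of-ratios factors, used nearly equal factors in every library, so it repeated the main fit and is no separate check. Nfib, Nfia and Igf2bp1 kept their direction in all 22, and Nfib had an unadjusted p under 0.05 in 15 of them, with log2 fold changes of 0.20 to 0.80 and adjusted p of 0.196 to 0.993. The number of genes called over all genes was 12, and became 2 without the mean-variance trend, 55 with library weights, 36 without the pair wild type 1 and Tbx3 cKO 3, 109 with a term for the globin ratio, 1 with a term for mesenchyme markers, 3 with a term for neuron markers, 1 without the pair wild type 1 and Tbx3 cKO 1, and 1 to 10 with a single library left out; the cause was not tested. Several signs turned, all for genes that did not pass. Igf2bp2 was 0.011 with upper-quartile factors, 0.016 with quantile normalization, 0.00053 without wild type 3 and 0.0051 without Tbx3 cKO 3. Hmga2 was -0.18 with library weights, -0.23 without wild type 1, -0.42 without both wild type 1 and Tbx3 cKO 3, -0.21 with the mesenchyme term and -0.73 with the neuron term. Lin28a was -0.22 without both wild type 1 and Tbx3 cKO 3 and -0.82 with the neuron term, which also gave -0.066 for Lin28b and -0.28 for Nfix. The neuron term did not overlap between the genotypes, so signs that turned with it cannot be read as a genotype effect free of neuron level. With a single library left out, Igf2bp3 ranged from -0.023 without wild type 1 to 0.22, and Hmga1 from -0.0013 without Tbx3 cKO 2 to 0.26. With the replicate number as a block, the count of calls was 13, with 10 shared with the 12, and Lin28a had an unadjusted p of 0.0117 (adjusted p = 0.204 by limma). The numbers were not taken to pair the samples, since the labels do not say so. Same-numbered libraries had correlations of deviations across genes of 0.33, 0.018 and 0.042, and those of unlike number had -0.299 to 0.228. With 3 libraries per group these values cannot settle whether the samples are paired. The early minus NFI difference stayed negative, at -0.90 to -0.04 with a single library left out. The lowest value of a timing gene was 45.7, for Nfix, where 3 reads are worth at most 3.41, and the part of counting error in the spread was not tested.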
